A study of Mus musculus with 2 samples.

Results

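Molecular chaperones of the heat shock families were followed in mouse neural progenitor cells, in 2 replicate neurosphere cultures profiled by single-cell RNA-seq. The set was defined by name as 10 genes, and 8 of them are described here out of the 10666 genes of the expression table. *Hspa1b* and *Dnajb1* were not analysed here. The set is usually described as heat shock and cytosolic chaperones. That name fits *Hspa8*, *Hsp90aa1*, *Hsp90ab1*, *Hsph1* and *Dnaja1*, whereas *Hspa5* acts in the endoplasmic reticulum (ER) and *Hspd1* and *Hspe1* act in mitochondria.

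Neurospheres are balls of dividing neural progenitors that grow in suspension. These came from the dorsal telencephalon of wild-type C57BL/6 embryos at embryonic day 14.5 and were kept dividing with EGF and bFGF, each at 10 ng/ml. Both cultures received the same treatment, so the design holds 1 condition and no contrast between groups. Cells of a culture share a library and were not taken as replicates, no p-value was computed, and the labels do not say whether the cultures came from separate litters. The labels name no heat or other stress for either culture.

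Chaperones bind unfolded stretches of other proteins and help them to fold, to assemble or to be degraded. Hsp70 proteins take up clients handed over by J proteins and release them with the help of nucleotide exchange factors, Hsp90 proteins receive part of these clients for late steps of maturation, and chaperonins fold proteins inside a closed cage. Heat shock factor 1 induces many of these genes when unfolded proteins accumulate in the cytosol, the unfolded protein response does so for the ER, and growing cells transcribe several of them without any stress.

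*Hspa8* encodes the constitutive cytosolic Hsp70 and lies on chromosome 9 (GRCm38, 40800984 to 40810087, plus strand). *Dnaja1*, on chromosome 4 (40722150 to 40737149, plus strand), encodes a J protein that delivers clients to it. *Hsph1*, on chromosome 5 (149614287 to 149636376, minus strand), encodes an Hsp110 protein that serves as an exchange factor for Hsp70. The cytosolic Hsp90 proteins come from *Hsp90aa1*, the inducible form on chromosome 12 (110690605 to 110702728, minus strand), and from *Hsp90ab1*, the constitutive form on chromosome 17 (45567775 to 45573271, minus strand). *Hspa5* encodes BiP, the Hsp70 of the ER, and lies on chromosome 2 (34771970 to 34777547, plus strand). *Hspd1* and *Hspe1* encode the mitochondrial chaperonin and the lid that closes it. They lie head to head on chromosome 1, *Hspd1* from 55077835 to 55088243 on the minus strand and *Hspe1* from 55088132 to 55091307 on the plus strand, so that 112 bases at their 5′ ends belong to both genes.

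RefSeq promoters on GRCm38.p6 were found for 5 of the 8 genes, with 9 start sites in all, and the 250 bases upstream of each start were searched on both strands for the sites named here. *Hspa8*, *Hsp90aa1* and *Hsp90ab1* had no entry. The sites are shown because *Hspd1* and *Hspe1* share theirs and because *Hspa5* carries a different kind. The lines give 30 bases each, 5′ to 3′ on the strand of the gene, at chr1:55088053-55088082 for *Hspd1* and *Hspe1* and at chr2:34772020-34772049 for *Hspa5*. Capitals mark the heat shock element in the *Hspd1* and *Hspe1* lines and the ER stress element in the *Hspa5* line.
Hspd1: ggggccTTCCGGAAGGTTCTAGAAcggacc
Hspe1: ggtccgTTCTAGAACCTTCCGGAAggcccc
Hspa5: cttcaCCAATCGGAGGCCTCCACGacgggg

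The heat shock element was searched as GAANNTTCNNGAA or TTCNNGAANNTTC, the inverted repeats that heat shock factor 1 binds. The *Hspd1* and *Hspe1* lines are the same DNA read from opposite strands, and its 18 capital bases hold 2 overlapping matches, between 144 and 127 bases before a start of *Hspd1* and between 89 and 72 bases before the start of *Hspe1*. This element occurs in 153 of 32851 promoter windows of the RefSeq table (0.466%). It was not found in the windows of *Hspa5*, *Hsph1* or *Dnaja1*, nor in that of the other *Hspd1* start. The shorter form GAANNTTC or TTCNNGAA, which overlaps the longer form by construction, was found in the windows of both starts of *Hsph1* and of 1 of the 3 starts of *Dnaja1*, and occurs in 12.8% of all windows. The ER stress element, searched as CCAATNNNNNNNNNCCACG or its reverse complement, was found once for *Hspa5*, between 65 and 47 bases before its start, and occurs in 37 windows of the table (0.113%). Its CCAAT part alone occurs in 33.8% of windows. In GENCODE vM21 the site of *Hspd1* and *Hspe1* lies upstream of *Hspe1* and within the untranslated region of an *Hspd1* transcript that starts farther upstream. The *Hspa5* site likewise lies in the untranslated region of an *Hspa5* transcript whose start is upstream of that in RefSeq. A match describes the letters only, and no binding was measured in these cells.

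Culture 1 held 5748 cells with a median of 19477 UMIs (unique molecular identifiers, which count RNA molecules), and culture 2 held 7057 cells with a median of 14637. The cultures had 48 cell barcodes in common. The neural progenitor markers *Vim* and *Fabp7* were above 0 in at least 99.2% of cells of each culture, whereas the dorsal telencephalic marker *Emx2* was above 0 in 21.8% and 21.1% of cells. *Olig2*, a marker of oligodendrocyte progenitors, was above 0 in 97.3% and 91.9% of cells. Culture 1 held more cells above 0 than culture 2 for *Pdgfra* (8.77% and 1.81%), *Sox10* (4.26% and 0.751%), *Dcx* (7.34% and 1.56%) and *S100b* (18.6% and 6.65%), markers of oligodendrocyte progenitors, young neurons and glia. *Cspg4*, another marker of oligodendrocyte progenitors, was above 0 in fewer cells of culture 1 (11.8% and 13.7%), and the mean value of *Sox10* was lower there (0.0482 and 0.0896). Mean values were nearly equal for *Dcx* (0.0918 and 0.0905), and higher in culture 1 for *Pdgfra* (0.104 and 0.0864) and *S100b* (0.300 and 0.148). Culture 1 was also sequenced more deeply, which can raise its share of cells above 0. Expression is given in the deposited values, which are linear, corrected for how deeply each cell was sequenced, and sum to a median of 11598 and 11399 per cell in the 2 cultures. Levels are means over cells of log2(value + 1), unless a linear value is named.

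In deposited values, the highest transcripts of the set were those of the constitutive cytosolic chaperones. *Hsp90ab1* had a mean value of 37.1 in culture 1 and 35.1 in culture 2, and *Hspa8* had 39.0 and 32.9. These values placed *Hspa8* at rank 43 and 59 and *Hsp90ab1* at rank 49 and 54 among all 10666 genes. On the log2 scale, *Hsp90ab1* was at 5.15 ± 0.06 and *Hspa8* at 5.09 ± 0.19 (SD, n = 2 cultures), and their order differed between the cultures.

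The mitochondrial pair and the inducible Hsp90 formed the next group. *Hspe1* had a mean value of 15.3 and 16, *Hsp90aa1* of 14.8 and 12.5, and *Hspd1* of 11.8 and 9.56. All 3 were above 0 in at least 98.1% of the cells of each culture. Their log2 levels were 3.96 ± 0.04, 3.70 ± 0.20 and 3.39 ± 0.23 (SD, n = 2), with the same order in both cultures, but the level of *Hsp90aa1* in culture 2 (3.56) and that of *Hspd1* in culture 1 (3.55) were nearly equal.

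*Hspa5* and *Dnaja1* were lower still. *Hspa5* had a mean value of 6.67 in culture 1, where 97.2% of cells were above 0, and of 4.93 in culture 2, where 92.0% were. *Dnaja1* had 5.37 (94.5% of cells) and 4.88 (88.6%). Their log2 levels were 2.47 ± 0.30 and 2.36 ± 0.13 (SD, n = 2). Within culture 1 *Hspa5* was the higher, at 2.69 against 2.45 for *Dnaja1*, and within culture 2 both were at 2.26. *Hsph1* was the lowest of the set, with a mean value of 0.488 and 0.400 and a log2 level of 0.41 ± 0.06. It was above 0 in 50.2% and 36.9% of cells. Its median cell was at 0.185 in culture 1 and at 0 in culture 2.

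**Figure D1:**
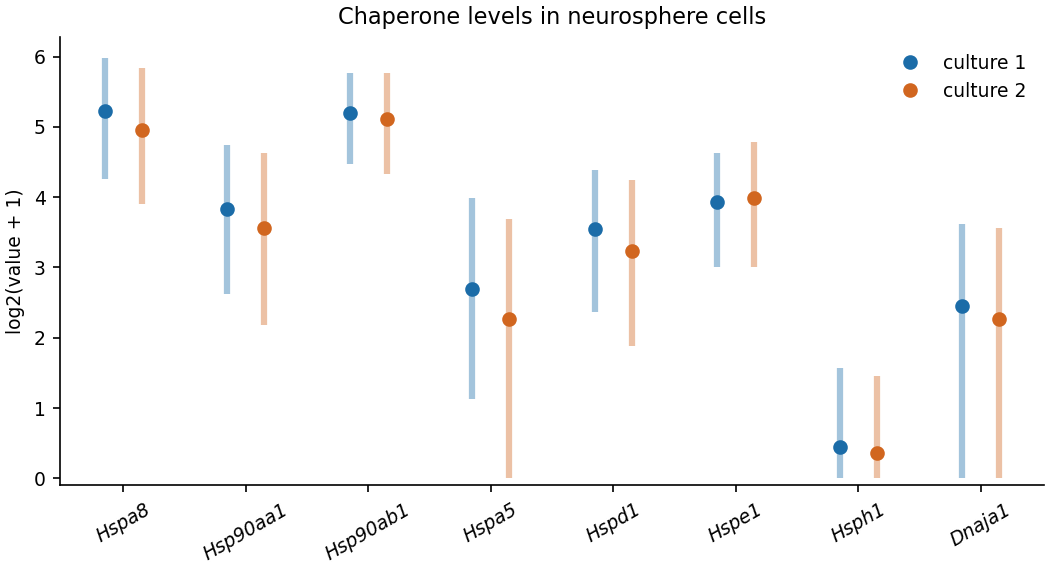
Levels of the 8 chaperone genes. Points are means of log2(value + 1) over the cells of each culture and bars span the 5th to the 95th percentile of cells; *Hsp90ab1* and *Hspa8* lie at the top and *Hsph1* lies at the bottom in both cultures.

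*Hsp90ab1* varied least from cell to cell. The 5th and 95th percentiles of its value were 21.3 and 53.4 among the cells of culture 1, and 19.1 and 53.3 among those of culture 2. *Hspa8*, with a similar mean, had percentiles of 18.2 and 62.3 and of 14.0 and 56.2. The SD of log2(value + 1) over cells was 0.41 and 0.45 for *Hsp90ab1*, the smallest of the set in each culture. It was largest for *Hspa5* in culture 1 (0.90) and for *Dnaja1* in culture 2 (1.0). Counting error is part of this spread and was not removed.

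The difference in level between the cultures could not be read as a difference in expression. For 4 genes the values of low cells fell on equally spaced steps, with at least 75% of values of up to 10 steps within 0.1 of a whole step in each culture, and the step was not the same in both. Such a step is what a UMI, or a part of a UMI, is worth for that gene. A step of *Hspd1* was 0.788 in the median cell of culture 1 and 1.51 in that of culture 2, which is 1.92 times larger. For *Hspa5* the step was 1.48 times larger in culture 2, for *Hsp90ab1* 1.5 times and for *Hsph1* 1.44 times, while the median total of UMIs per cell was 1.33 times larger in culture 1. Steps also differed between genes, at 0.454 and 0.652 for *Hsph1* and 0.89 and 1.334 for *Hsp90ab1* in the 2 cultures. The order and ranks of genes given above are therefore those of deposited values, which need not be those of RNA molecules. Counted in steps, a cell held on average 16.2 and 6.69 of *Hspd1*, a ratio of 2.43, where the deposited means have a ratio of 1.23. Taken as Poisson counts of steps, counting error makes up 37.1% and 43.6% of the variance among cells for *Hsp90ab1*, 32.4% and 39.5% for *Hspa5* and 42.8% and 67.6% for *Hspd1*. Steps were not resolved for *Hspa8*, *Hsp90aa1*, *Hspe1* and *Dnaja1*. Annotated pseudogenes numbered 6 for *Hspe1*, 5 for *Hspd1* and 1 for *Dnaja1*, and how reads shared with such copies, or with the bases that *Hspd1* and *Hspe1* share, were divided was not tested. The results below are therefore patterns within each culture.

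The chaperones were then followed along the cell cycle. Each cell carries a deposited position on a circle of 2π. On it the replication gene *Mcm5* had its maximum at 0.685π and 0.66π in the first and the second culture, and the mitotic gene *Cdc20* at 1.275π and 1.285π. A curve of 2 harmonics was fitted to each gene in each culture, and its R² is the share of the variance among cells that the position accounts for. Of 12 cell-cycle landmark genes fitted for comparison, 11 reached 0.05 in each culture. Their median, taken on the lower of the cultures, was 0.512. The highest were *Ube2c*, a ubiquitin-conjugating enzyme (0.743 and 0.725), and *Cdc20*, which activates the anaphase-promoting complex (0.693 and 0.673). The authors derived the position from the expression of cell-cycle genes in these same cells. Landmark genes that entered it have a high R² and ordered maxima partly by construction, so they are not an independent yardstick.

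None of the 8 chaperones varied to this degree. The same limit was reached by 0 of 8, where 4.01% of all genes reached it. With a limit of 0.02 it was reached by *Hsp90aa1* and *Hspa5*, 2 of 8, where 8.34% of all genes did. The median of the lower R² was 0.00703 over the 8 genes, 0.00183 over all genes and 0.00893 over the 487 genes that were above 0 in at least 90% of the cells of each culture. The range of class means along the cycle, taken over 8 position classes of 0.25π numbered from 0, had a median of 0.28 (log2) over the set and of 0.26 over those 487 genes.

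**Figure D2:**
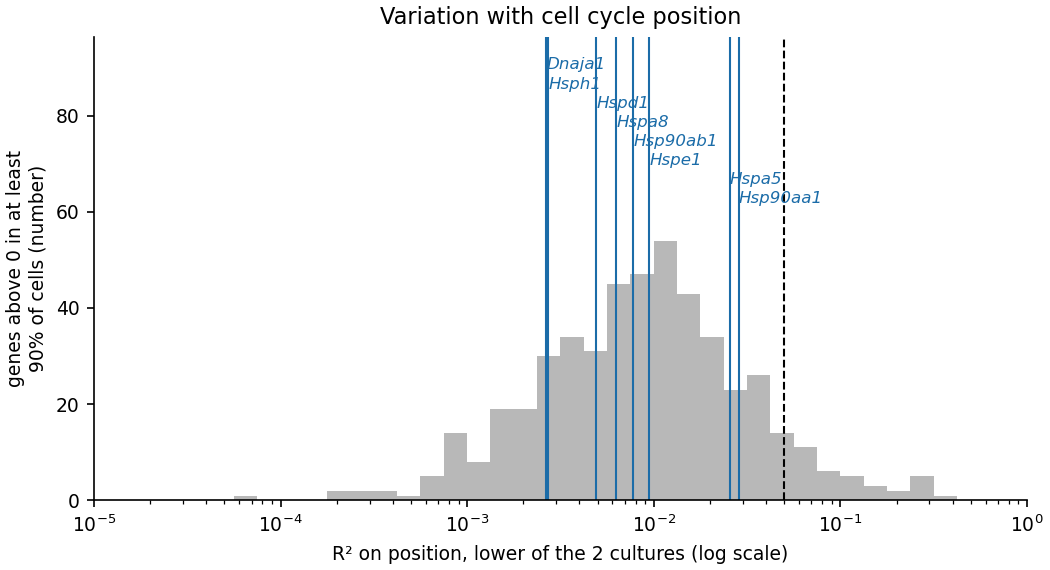
Variation with cell cycle position, as the lower R² of the 2 cultures on a log axis. Grey bars count the 487 genes above 0 in at least 90% of the cells of each culture, blue lines mark the 8 chaperones (of which *Hsph1* and *Dnaja1*, and no other, are not among those 487) and the dashed line marks 0.05; all 8 lie to the left of it.

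*Hsp90aa1*, the inducible Hsp90, had the highest R² of the set, 0.1 in culture 1 and 0.0286 in culture 2. In culture 1 its class means were, from the first class to the eighth, 3.68, 3.75, 3.95, 4.05, 4.11, 4.05, 3.99 and 3.57. In culture 2 they were 3.40, 3.55, 3.60, 3.67, 3.72, 3.93, 3.85 and 3.47. In both cultures the first and the eighth class, which meet at 0, were the lowest, and the highest class lay beyond π, the fifth in culture 1 and the sixth in culture 2. The range was 0.54 and 0.53 (log2), which is 1.40 and 1.41 times in linear values from the lowest to the highest class. The maximum of the fitted curve lay at 1.2π and at 1.47π. In culture 2 the 2 highest classes were the sixth and the seventh, which hold 279 and 189 cells there and 85 and 64 in culture 1, and without them the range was 0.54 and 0.33. Total UMIs also changed along the cycle, and the lower partial R² with depth in the fit was 0.0391.

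*Hspa5* went the other way. Its R² was 0.0256 and 0.0258. The class means of culture 1 were 2.78, 2.75, 2.78, 2.67, 2.44, 2.33, 2.36 and 2.79, and those of culture 2 were 2.41, 2.30, 2.34, 2.09, 1.98, 2.14, 2.0 and 2.36. Transcripts of this ER chaperone were therefore higher in the eighth and the first 3 classes than in the other 4, in both cultures. The range was 0.46 and 0.43, or 1.49 and 1.51 times in linear values, with the maximum of the curve at 0.11π and 0.185π and the minimum at 1.37π and 1.35π. Without the 2 sparse classes it was 0.35 and 0.43, and the lower partial R² with depth in the fit was 0.0229.

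*Hspa8* and *Hsp90ab1* each passed 0.05 in 1 culture. *Hspa8* had an R² of 0.0562 in culture 1, with its highest class mean (5.46) in the fourth class, and of 0.00629 in culture 2, where the same class was at 4.98 and the curve had its maximum at 1.64π instead of 0.80π. The maximum in culture 2 lay in the sparse classes, and without them its highest class was the third (4.99) and the range was 0.35 and 0.13. *Hsp90ab1* had an R² of 0.00778 and 0.0507, but the shape was alike in both, with the lowest class mean in the fourth class (5.15 and 4.94) and the highest in the sparse seventh (5.37 and 5.24). Without the 2 sparse classes, its range was 0.07 instead of 0.22 in culture 1 and 0.26 instead of 0.30 in culture 2.

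The other 4 genes had an R² under 0.05 in each culture. That of *Hspe1* was 0.0211 and 0.00947, that of *Hspd1* 0.0134 and 0.00491, that of *Hsph1* 0.00273 and 0.00367 and that of *Dnaja1* 0.00266 and 0.00400. *Dnaja1* nevertheless had the widest range of the set in culture 1, 0.60, against 0.29 in culture 2. This range came from the sparse classes, in which it had 2.74 and 2.14 in culture 1 and 2.51 and 2.52 in culture 2, and without them it was 0.09 and 0.06.

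**Figure D3:**
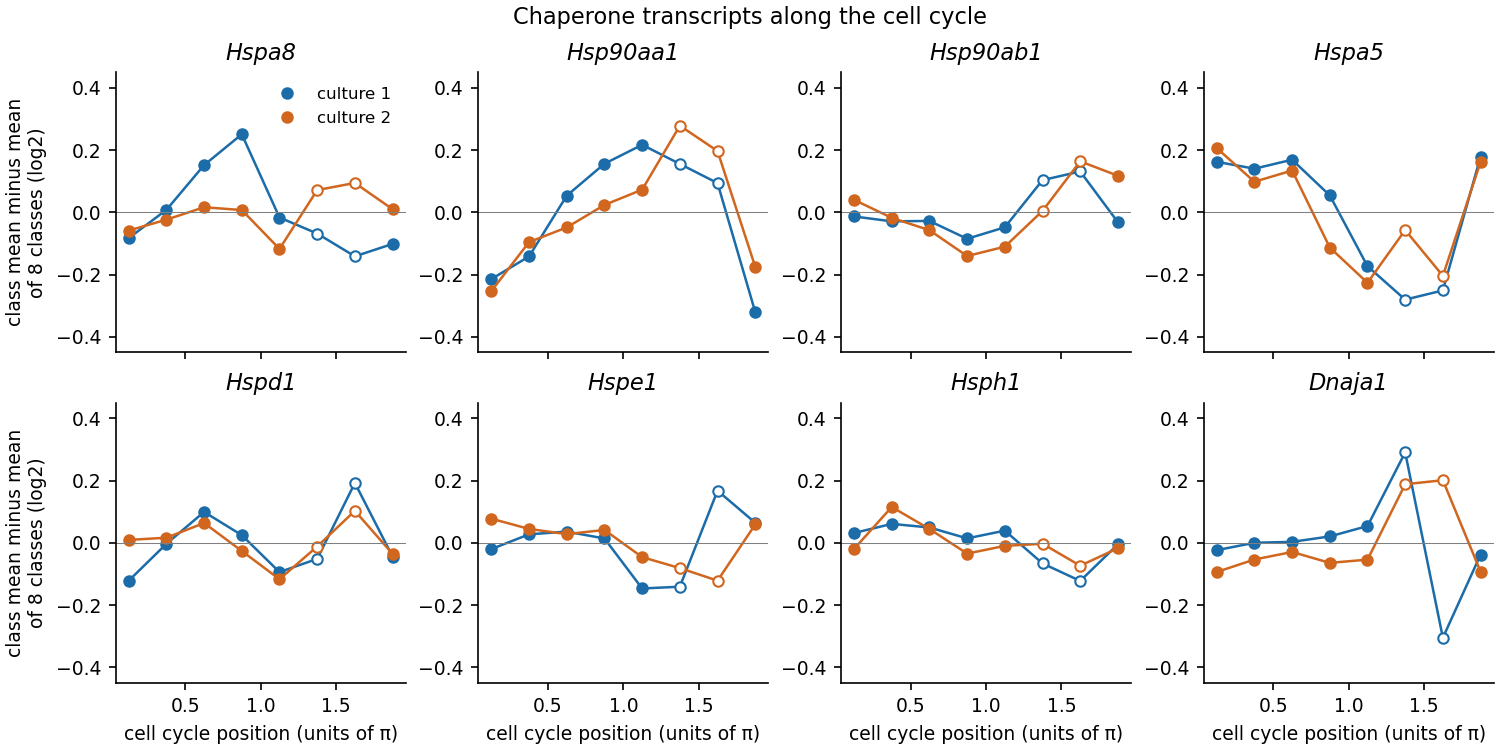
Chaperone transcripts along the cell cycle. Each point is the mean of log2(value + 1) in 1 of 8 position classes minus the mean of the 8 classes, lines join the classes of a culture and open points are classes of fewer than 300 cells; *Hsp90aa1* is higher beyond π than near 0, *Hspa5* is lower there, and the open points of *Dnaja1* lie apart from its filled ones.

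Part of the cells also carry a deposited stage, 1 of 5 called by the SchwabeCC method. The mitochondrial chaperonin had an R² of 0.0466 and 0.0300 on these stages, among the cells with a stage. Its R² on position, 0.0134 and 0.00491, was taken over all cells, so these values rest on unlike sets of cells. *Hspd1* was highest in the M.G1 stage, at 3.74 and 3.43, and lowest in G2, at 3.36 and 3.02, a range of 0.38 and 0.41 in the 2 cultures. The median cell was shallower in M.G1 (17340 and 14004 UMIs) than in G2 (20027 and 15761). *Hsp90ab1* was highest in M.G1 as well, at 5.33 and 5.23, and so was *Hspe1*, at 4.04 and 4.05. M.G1 was the highest stage in both cultures for 3 of 8 chaperones, where it was for 6.21% of all genes. Within culture 1 it was the highest for 3 of 8, where it was for 1577 of 10666 genes, and within culture 2 for 7 of 8, where it was for 1873 of 10666. *Hsp90aa1* was lowest in G2, at 3.73 and 3.47, and so was *Hspa5*, at 2.61 and 2.08, although on position *Hsp90aa1* had its highest and *Hspa5* its lowest class beyond π. *Hsp90aa1* was highest in S in culture 1 (3.94) and in M.G1 in culture 2 (3.73). The stages are called from the expression of a published gene list, and the part of any chaperone in that call was not tested.

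Co-expression asks whether a cell that holds more of a chaperone than its neighbours also holds more of another. Pearson's r was computed across the 5748 cells of culture 1 and the 7057 cells of culture 2. Cells of a culture share a library and differ in depth, so r is a description. Of the 28 pairs of chaperones, 9 had r of at least 0.1 in both cultures, where 0.173% of all gene pairs of the table had, and 1.38% of the pairs among the 1988 genes that were above 0 in at least 50% of cells. The number was again 9 with total UMIs taken out, where the share of all pairs was 0.146%. It was also 9 with total UMIs and cell-cycle position taken out, where that share was 0.0344%. None of the 9 pairs held *Hsph1* or *Dnaja1*, the chaperones above 0 in the fewest cells. The share was larger among genes above 0 in more cells, and the shares with depth or position taken out cover all pairs only. No share was computed among genes detected as widely as those of the 9 pairs, so an excess over such pairs was not tested.

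The cytosolic chaperones formed a triangle. The r of *Hsp90aa1* with *Hsp90ab1* was 0.263 in culture 1 and 0.247 in culture 2, that of *Hspa8* with *Hsp90aa1* was 0.231 and 0.239, and that of *Hspa8* with *Hsp90ab1* was 0.217 and 0.270. These values differed little between the cultures. With depth and position taken out, they were 0.288 and 0.256, 0.194 and 0.203, and 0.238 and 0.245.

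The mitochondrial chaperonin genes had the highest r of any pair of the set in culture 1 but not in culture 2, where *Hspa8* with *Hsp90ab1* was highest at 0.270. The r of *Hspd1* with *Hspe1* was 0.393 in culture 1 and 0.210 in culture 2, and 0.321 and 0.203 with depth and position taken out. *Hspd1* also went with cytosolic genes, at 0.297 and 0.161 with *Hspa8*, 0.279 and 0.180 with *Hsp90ab1* and 0.162 and 0.179 with *Hsp90aa1*. *Hspe1* reached 0.1 in both cultures with none of these 3. Its r was 0.112 and 0.00758 with *Hspa8*, 0.121 and 0.0125 with *Hsp90ab1* and 0.0193 and 0.0249 with *Hsp90aa1*, although it is the more abundant of the chaperonin genes in deposited values.

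*Hspa5* went with *Hspa8*, at 0.206 and 0.211, and with *Hspd1*, at 0.231 and 0.156. With *Hsp90aa1*, whose profile along the cycle was opposite, its r was 0.0227 and 0.0727, and 0.0623 and 0.0725 once depth and position were taken out. The co-factors of Hsp70, *Dnaja1* and *Hsph1*, had no pair at 0.1 in both cultures, and *Hspe1* had 1, with *Hspd1*. The median r with the other 7 chaperones, on the lower of the cultures, was 0.0136 for *Dnaja1*, 0.0324 for *Hsph1* and 0.0125 for *Hspe1*. *Hsph1* was above 0 in only 50.2% and 36.9% of cells. The highest r of *Dnaja1* with another chaperone, taken as the lower of the cultures, was 0.0897 with *Hspa8*, and that of *Hsph1* was 0.0448 with *Hsp90aa1*. Neither had any of the 10665 other genes at 0.1 in both cultures, where *Hsp90aa1* had 167 and *Hspd1* 160. *Hspa5* had 42.

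**Figure D4:**
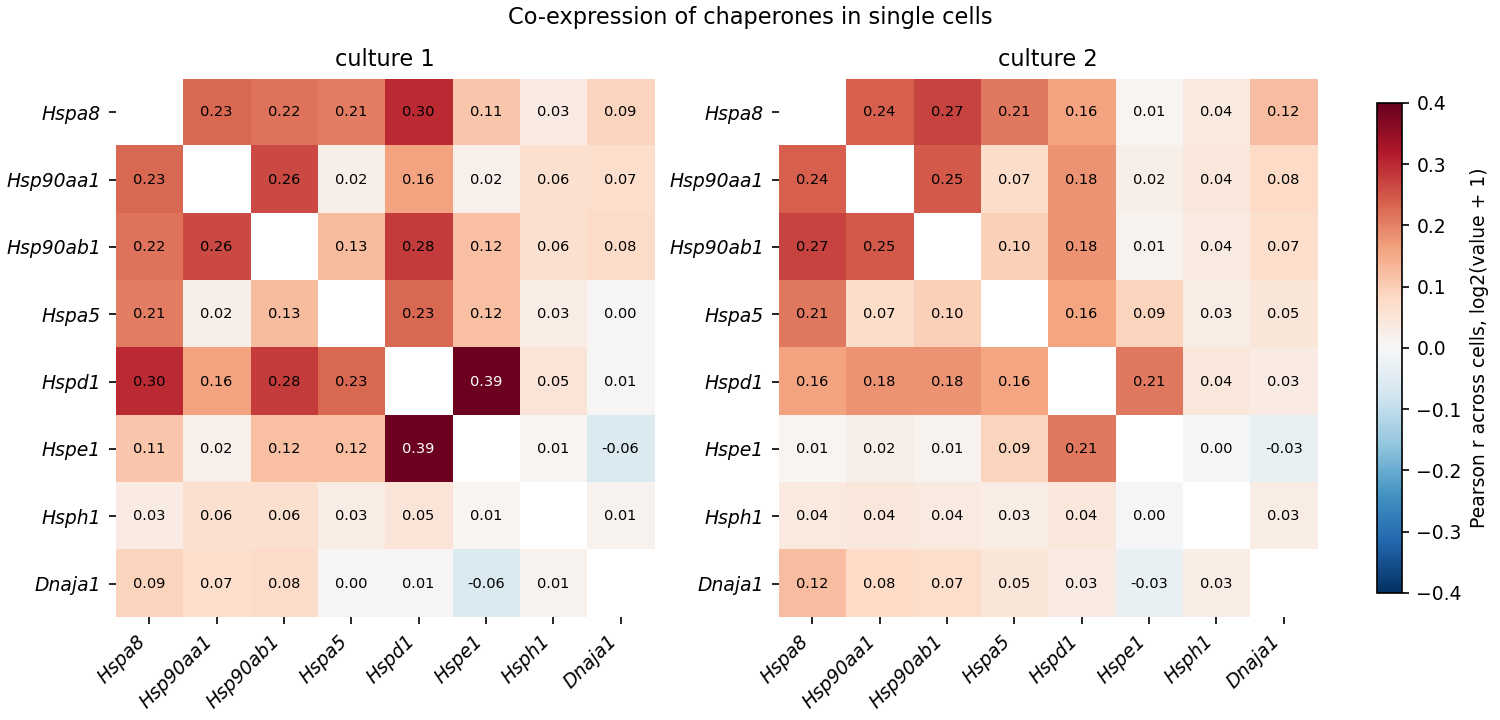
Pearson r across cells for every pair of the 8 chaperones, in culture 1 (left) and culture 2 (right), with the value printed in each square. The block of *Hspa8*, *Hsp90aa1* and *Hsp90ab1* and the pair of *Hspd1* and *Hspe1* are red in both panels, and the rows of *Hsph1* and *Dnaja1* are pale.

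For each chaperone the 3 genes outside the set with the highest lower r were named, among genes above 0 in at least 10% of cells. For *Hspa5* all 3 were ER proteins, namely *Calr*, a lectin chaperone (0.370 and 0.257), *Pdia6*, a disulfide isomerase (0.288 and 0.215), and *Manf*, a secreted ER stress protein (0.164 and 0.207). For *Hsp90aa1* they were *Eif4a1*, a helicase of translation initiation (0.251 and 0.300), *Ranbp1*, a regulator of nuclear transport (0.355 and 0.219), and *Prmt1*, an arginine methyltransferase (0.217 and 0.256). *Hsp90ab1* had *Npm1*, a nucleolar protein of ribosome assembly (0.316 and 0.316), *Eif4a1* (0.237 and 0.325) and the chaperonin subunit *Cct5* (0.224 and 0.263).

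*Hspa8* had *Vim*, an intermediate filament of progenitors (0.258 and 0.261), *Eif4a1* (0.248 and 0.344) and *Cct8* (0.213 and 0.211). *Hspd1* had the nucleolar gene *Ncl* (0.282 and 0.264), *Cct6a* (0.283 and 0.230) and *Npm1* (0.242 and 0.219). *Hspe1* had *Atp5g1*, a subunit of ATP synthase (0.340 and 0.207), *Tomm40*, the import channel of the outer membrane (0.255 and 0.186), and *Nhp2*, a nucleolar protein (0.206 and 0.186). For *Hsph1* the nearest were *Ncl*, *Nop58* and *Npm1*, at a lower r of 0.0839, 0.0678 and 0.0630, and for *Dnaja1* they were *Eif4a1*, *Tubb2b* and *Hnrnpk*, at 0.0729, 0.0705 and 0.0684.

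Other genes of the chaperone network were read from 6 lists of 94 genes, of which 78 were analysed. Along the cell cycle 2 of the 78 reached an R² of 0.05 in each culture, where 4.01% of all genes did. A count this small does not tell these shares apart. The 2 listed genes were *Hspa14*, a ribosome-associated Hsp70 (0.0814 and 0.0574, with maxima at 0.94π and 0.855π), and *Vbp1*, a subunit of prefoldin (0.0875 and 0.0648, at 1.37π and 1.44π). At 0.02, 6 did, where 8.34% of all genes did, among them the Hsp90 co-chaperones *Ptges3* (0.0455 and 0.0349) and *Fkbp5* (0.0345 and 0.0274) and the ribosome-bound J protein *Dnajc2* (0.0412 and 0.0229). The last was *Calr* (0.0318 and 0.0323), which had its maximum at 0.165π and 0.145π, near that of *Hspa5*. *Hsp90b1*, the Hsp90 of the ER, had its maximum at 1.38π in both cultures (R² 0.0170 and 0.0234), near the minimum of *Hspa5*, although the r of these genes across cells was 0.292 and 0.161.

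The mean of the 8 chaperones had r of at least 0.1 in both cultures with 23 of the 78 listed genes, with 275 of all 10666 genes and with 230 of the 1988 genes above 0 in at least 50% of cells. The list of the cytosolic chaperonin TRiC and its partner prefoldin led with 9 of 14 genes and a median lower r of 0.198, against 0.0108 for those 1988 genes. All 8 TRiC subunits of the list were among the 9, led by *Cct6a* (0.356 and 0.292) and *Cct3* (0.270 and 0.284), and the other was the prefoldin gene *Pfdn4* (0.125 and 0.164), named here after its value was seen. *Pfdn1*, second to *Vbp1* on position (R² 0.0233 and 0.0132), was at -0.0141 and 0.0688. Of the Hsp90 co-chaperones 6 of 14 passed, led by *Cacybp* (0.255 and 0.229) and *Ppid* (0.239 and 0.196). The ER list had 4 of 18, with *Pdia6* (0.245 and 0.240) and *Calr* (0.259 and 0.209) at the top, and the other Hsp70s, J proteins and exchange factors had 3 of 18, with *Dnaja2* (0.170 and 0.169) and *Hspa4* (0.125 and 0.131) first. The mitochondrial list had 1 of 10, *Hspa9*, the mitochondrial Hsp70 (0.208 and 0.191), followed by the mitochondrial Hsp90 *Trap1* (0.134 and 0.0868). The R² of this list on position was at most 0.00690 (*Hspa9*, followed by its exchange factor *Grpel1* at 0.00354), on the lower of the cultures. Of a list of small heat shock proteins and other genes of the heat shock factor response, 4 were analysed, none of them a small heat shock protein (*Ubb*, *Hsf1*, *Hsf2* and *Hsbp1*), and 0 of the 4 reached 0.1. *Ubb*, a polyubiquitin gene, was at -0.0651 in culture 1 and 0.232 in culture 2, and *Hsf1*, the heat shock factor itself, at 0.0172 and 0.0398. *Ubb* (R² 0.0689 and 0.020) and *Hsbp1*, a binding protein of that factor (0.0233 and 0.0130), led this list on position.

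*Hspa5* had the highest r of the set with the mean of the ER list, 0.413 and 0.322. *Hspd1* had 0.223 and 0.107 with it, *Hspa8* 0.155 and 0.157 and *Hsp90aa1* -0.00256 and 0.0875. *Hspd1* and *Hspe1* had 0.295 and 0.188 and 0.272 and 0.163 with the mitochondrial list, and *Hsp90ab1* had 0.0568 and 0.0504. With TRiC and prefoldin, *Hsp90aa1*, *Hsp90ab1* and *Hspa8* had 0.342 and 0.360, 0.339 and 0.387, and 0.321 and 0.377. *Hspd1*, at 0.330 and 0.291, was close to these cytosolic genes, and its r with the Hsp90 co-chaperones, 0.343 and 0.242, was likewise above its r with the mitochondrial list, whereas *Hspe1*, at 0.150 and 0.101, and *Hspa5*, at 0.109 and 0.173, were lower. With *Hspa9* alone, r was 0.312 and 0.20 for *Hspd1* and 0.229 and 0.140 for *Hspe1*. The mitochondrial list held 10 genes, and the TRiC and prefoldin list and the co-chaperone list 14 each, at unlike levels. An r with a list mean depends on both, so values for different lists are not on the same scale.

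Dissociation of cells can induce immediate early genes, and 4 of a list of 16 were analysed (*Fosb*, *Dusp1*, *Nr4a1* and *Myc*). *Fosb* was above 0 in 4.12% and 3.30% of cells, *Nr4a1* in 7.20% and 4.11%, *Dusp1* in 20.5% and 23.3% and *Myc* in 40.0% and 27.2%. Such sparse detection limits any r of these genes, and the part of dissociation was not tested. The r of their mean with each chaperone lay between -0.0597 and 0.0286 in the 2 cultures. The highest lower r with the mean of the 8 chaperones was 0.0233 for *Myc*, a growth-linked transcription factor, and their R² on position was at most 0.00548 (*Myc*), with *Nr4a1* next at 0.00181.

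**Figure D5:**
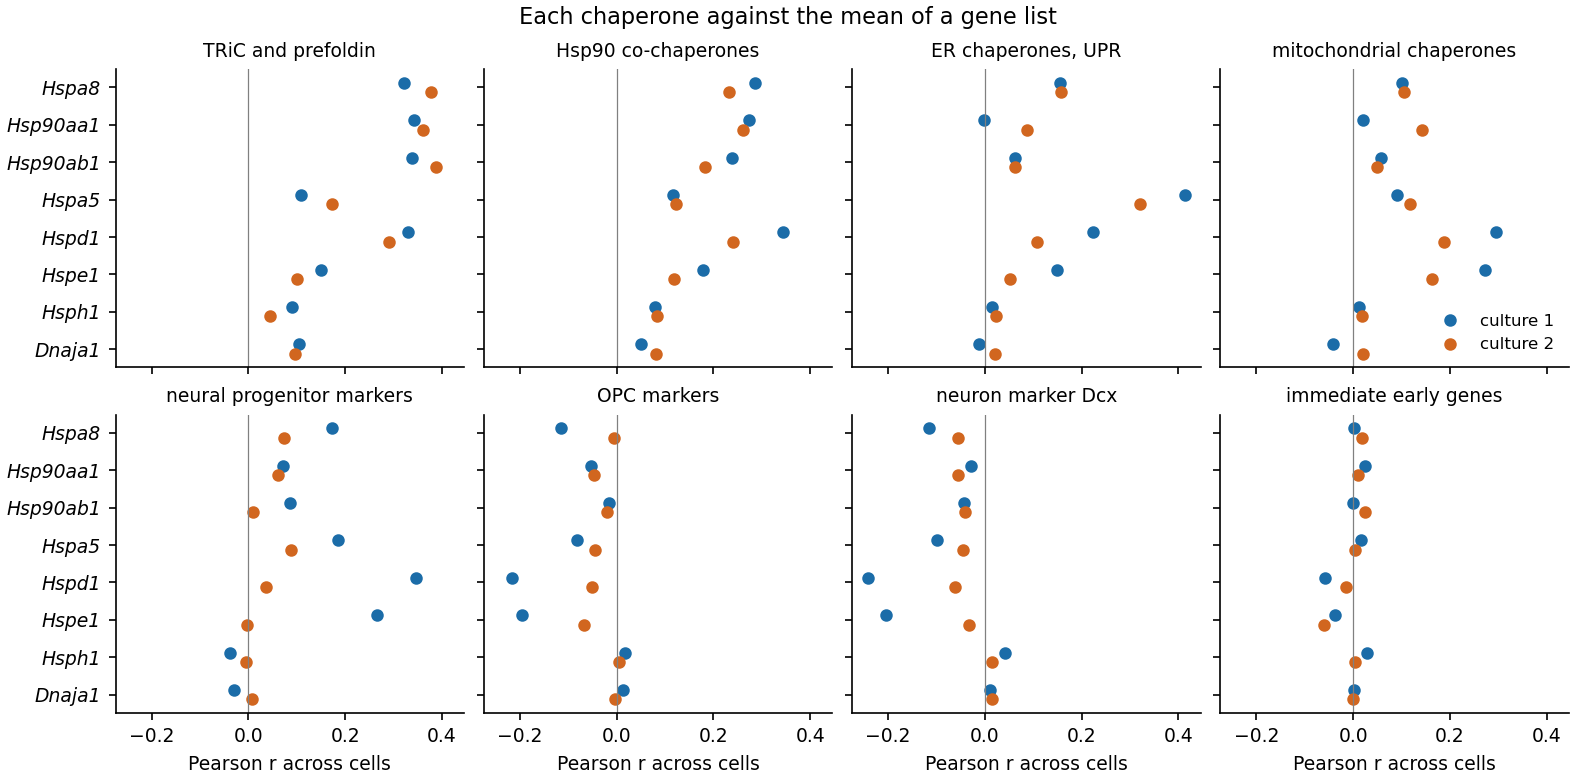
Pearson r across cells of each chaperone with the mean of a gene list, by culture. *Hspa5* lies farthest to the right for the ER list, and *Hspd1* and *Hspe1* lie apart between the cultures for the progenitor markers, the oligodendrocyte progenitor (OPC) markers and *Dcx*.

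The cultures differed in how the mitochondrial pair went with cell identity. In culture 1, *Hspd1* had an r of 0.346 with the neural progenitor markers, of -0.217 with the oligodendrocyte progenitor markers and of -0.242 with *Dcx*, and *Hspe1* had 0.267, -0.195 and -0.204. In culture 2 the values were 0.0362, -0.0501 and -0.0615 for *Hspd1* and -0.00356, -0.0683 and -0.0324 for *Hspe1*. The oligodendrocyte progenitor mean was taken over 4 genes that include *Olig2*, which was above 0 in 97.3% and 91.9% of cells. It is therefore not specific to oligodendrocyte progenitors, and the part of *Olig2* in these values was not tested. Over the 8 chaperones, r lay between -0.167 and 0.0635 for the mean of the astroglial markers *S100b* and *Aldh1l1*. These differed in their r with the mean of the 8 chaperones, -0.211 and -0.0487 for *S100b* and 0.0439 and -0.0154 for *Aldh1l1*. Culture 1 held more cells above 0 for *Pdgfra*, *Sox10*, *Dcx* and *S100b*, though not for *Cspg4*. When cells above 0 for any of the first 4 of these genes were left out, 69.4% of cells in culture 1 and 90.3% in culture 2 remained, and the r of *Hspd1* with *Hspe1* was 0.339 and 0.209. In the cells left out, *Hspd1* was at 3.33 in culture 1 and 3.09 in culture 2, against 3.65 and 3.24 in the cells kept. With those cells left out, the number of pairs at r of at least 0.1 in both cultures was again 9, but the share of all gene pairs was not computed for the cells kept. Total UMIs moved with these genes too, since the r of *Hspd1* with log2 total UMIs was 0.263 in culture 1 and 0.0653 in culture 2, and that of *Hspe1* 0.269 and 0.0938. The part of depth and of cell identity in the difference between the cultures was not tested.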

How the data were processed

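Chromium 3′ libraries of 2 neurosphere cultures were analysed (kit v2 in the labels, v3 in the methods). Per the labels and methods, the authors quantified reads with alevin (Salmon 1.3.0) on GRCm38, kept spliced counts, removed outlying cells (doublet scores included) and rare genes, and used Seurat 3.2.2. The deposited expression table is a signal normalised by the authors for the depth of each cell. The deposited per-cell table gives estimated counts (total UMIs) and, as other values, position and stages. No doublet caller was run here. Every per-sample column was mapped.

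Values were taken as log2(value + 1) with a pseudocount of 1. In each culture, curves of 2 harmonics were fitted to all genes and Pearson r was computed for all gene pairs, with Python 3.11.15, NumPy 2.4.6, SciPy 1.17.1 and pandas 2.3.3. A gene or pair counted when it reached the limit in both cultures. There is 1 condition, so no test was run. Fits and correlations were tested on simulated data. The members, lists, limits and the rule for named genes (all members, the 3 closest genes to each, and the 2 leading genes of each list by R² and by r) were chosen with earlier results of these data known. The astroglial list, Dcx and the genes analysed of other marker lists were read as markers; dorsal markers as a list are not reported here, and ventral, endothelial, microglial, mesenchymal and erythroid markers were not analysed here. The planned parts on *Hspa1b* and on protein sequences were not run. Gene locations are from GENCODE vM21 and promoters from RefSeq, on GRCm38. Alternatives are other limits, transforms, classes and covariates, each culture left out, and others chosen after seeing the data (the worth of a step, sparse classes left out, cells without markers, and the limit of 75% on steps).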

Additional observations from a re-analysis of the deposited data

How the results depend on the processing

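No paired analysis was possible because there is only 1 group. The number of chaperones varying with position was 0, and 2 with an R² limit of 0.02 (8.34% of all genes), and lay between 1 and 2 with a culture left out (4.26% and 5.6% of all genes), when *Hsp90ab1* (0.0507 in culture 2), or *Hspa8* (0.0562) and *Hsp90aa1* (0.1) in culture 1, passed. For the listed genes it was 2, and 6 at 0.02, 0 at 0.1 (2.25% of all genes), 0 on SchwabeCC stages (1.32%), 1 with a pseudocount of 0.1 (3.95%), and between 2 and 3 with a culture left out. Co-expressed pairs numbered 9, and 14 at r of 0.05 (0.773% of all pairs), 5 at 0.2 (0.034%) and between 10 and 13 with a culture left out (0.198% and 0.626%). The median level of 3.55 was 12.2 in linear values, another unit, and lay between 3.40 and 3.69 with a culture left out. The median range of 0.28 was 0.40 with 16 classes, 0.46 with a pseudocount of 0.1, 0.18 without the sixth and seventh position classes, and between 0.26 and 0.35 with a culture left out. The cause of these shifts was not tested. With the values of *Hsph1* divided by the worth of a step, its range was 0.28 instead of 0.19. *Hsph1* was above 0 in only 50.2% and 36.9% of cells, which limits the precision of its values at this depth.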
